A study of Mus musculus with 16 samples.

Results

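The gene for the microtubule-associated protein tau, Mapt, and 9 genes for kinases that phosphorylate tau or activate such a kinase were measured by RNA sequencing in the mouse brain cortex. The 10 genes are Mapt, Gsk3a, Gsk3b, Cdk5, its activator Cdk5r1, Mark1, Mark2, Mark3, Mark4 and Fyn. They were taken by symbol from a count table of 55385 genes, each symbol had a row, and all 10 passed the filter on low counts along with the rest of the 17019 genes tested. The series holds 16 animals aged 5 months, 4 in each of 4 genotypes, with 1 library of polyadenylated RNA per animal. The first genotype, 5xFAD-Dp16, carries both the 5xFAD transgenes and the Dp16 duplication, and its 4 animals were male. The second, 5xFAD, carries human amyloid precursor and presenilin transgenes with familial Alzheimer disease mutations under the neuronal Thy1 promoter, and had 2 males and 2 females. The third, Dp16, carries a duplication of the stretch of mouse chromosome 16 that matches most of human chromosome 21, as a model of Down syndrome, and also had 2 males and 2 females. The last, wild-type C57BL/6J, had 2 males and 2 females. The 5xFAD line has no tau mutation, and the tau gene in all 4 genotypes is the animal's own.

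Tau binds and stabilises axonal microtubules, and phosphorylation at many serine and threonine residues lowers its affinity for them. Hyperphosphorylated tau is the material of the neurofibrillary tangles of Alzheimer disease and of the brains of older people with Down syndrome. Glycogen synthase kinase 3, in an alpha form (Gsk3a) and a beta form (Gsk3b), and the neuronal kinase Cdk5 phosphorylate proline-directed sites of tau. Cdk5 is inactive until bound by an activator, chiefly p35, the product of Cdk5r1. The microtubule affinity regulating kinases Mark1 to Mark4 phosphorylate the microtubule-binding repeats and detach tau from microtubules, and Fyn, a Src family kinase, phosphorylates tau on a tyrosine and is brought to dendrites by it. These activities are set largely by phosphorylation, proteolysis and partner proteins, which RNA levels do not measure.

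Library totals ran from 12483286 to 20385010 counted reads, and the lowest count of any of the 10 genes in any library was 219, for Mark4. App, which lies in the duplicated segment, averaged 1748 ± 225 CPM (counts scaled to library size) in 5xFAD-Dp16, 837 ± 156 in 5xFAD, 1614 ± 205 in Dp16 and 1155 ± 273 in wild-type cortex (SD, n = 4 each). Thy1, whose promoter drives the transgenes, averaged 1647 ± 138 CPM in 5xFAD-Dp16, 1640.0 ± 200.2 in 5xFAD, 863 ± 48.5 in Dp16 and 886 ± 41.5 in wild-type cortex (SD, n = 4 each). The Thy1 ranges of the transgene carriers and of the non-carriers did not overlap, while those of App overlapped between Dp16 and wild-type. Neuronal and glial marker genes of cortex were detected in every group, and no marker gene was at 0 throughout. The libraries also differed in a way that the labels do not describe: in some, long genes were higher and short genes lower than the average library, and in others the reverse. This length trend, given as the Spearman correlation across the tested genes between a gene's length and its deviation in that library, ran from 0.102 to 0.451 in 5xFAD-Dp16, from -0.462 to 0.227 in 5xFAD, from -0.308 to 0.263 in Dp16 and from -0.360 to 0.435 in wild-type libraries. The 5xFAD library with the lowest trend was replicate 3, and the wild-type libraries at the ends were replicates 2 and 4.

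None of the 10 genes lies in the duplicated segment of chromosome 16, taken as chr16:75540514-97962622 in build GRCm38, with gene positions from the Gencode M21 annotation of that build. Gsk3b is on the same chromosome at chr16:38089001-38246084, which ends 37.3 Mb before the segment begins. Mapt lies at chr11:104231390-104332090 and Cdk5r1 on the same chromosome at chr11:80477023-80481184. Gsk3a, at chr7:25228258-25237851, and Mark4, at chr7:19424775-19458821, share chromosome 7. Cdk5 is at chr5:24418241-24423530, Mark1 at chr1:184896789-184999570, Mark2 at chr19:7275396-7341860, Mark3 at chr12:111574523-111656221 and Fyn at chr10:39368855-39565381. The gene 9130221H12Rik overlaps Gsk3a on the opposite strand and held 21 to 100 counts per library against 1585 to 4875 for Gsk3a. The strand setting of the counting is not given in the sources used here, so reads of Gsk3a and of this partner may not be fully separated.

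RefSeq promoter sequences in build GRCm38.p6 were matched for 6 of the 10 genes, and 4 are shown because they belong to genes that moved together or stood apart from the rest in the results that follow. Gsk3a and Mark2 are among the genes that varied with Mapt from library to library (Pearson r = 0.93 for Gsk3a and 0.95 for Mark2, with Mark1, not shown, highest at 0.96), Gsk3b had the widest relative spread within wild-type, and Mark3 followed the others least. Each line gives the 250 bases before the transcription start, 5′ to 3′ on the gene's own strand, with capitals marking the GC box GGGCGG, the CCAAT box CCAAT and the TATA box TATAAA on either strand. The windows are chr7:25237852-25238101 on the minus strand for Gsk3a, chr16:38088751-38089000 on the plus strand for Gsk3b, chr19:7341861-7342110 on the minus strand for Mark2 and chr12:111574260-111574509 on the plus strand for Mark3.
Gsk3a: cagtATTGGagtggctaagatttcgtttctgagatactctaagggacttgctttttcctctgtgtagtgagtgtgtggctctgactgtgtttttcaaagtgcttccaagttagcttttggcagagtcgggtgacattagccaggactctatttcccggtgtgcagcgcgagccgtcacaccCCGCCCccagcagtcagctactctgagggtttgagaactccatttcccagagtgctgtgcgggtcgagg
Gsk3b: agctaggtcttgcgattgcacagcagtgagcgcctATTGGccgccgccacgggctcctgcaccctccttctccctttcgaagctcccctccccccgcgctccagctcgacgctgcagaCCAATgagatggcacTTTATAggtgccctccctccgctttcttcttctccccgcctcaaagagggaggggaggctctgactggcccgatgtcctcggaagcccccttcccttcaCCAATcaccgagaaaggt
Mark2: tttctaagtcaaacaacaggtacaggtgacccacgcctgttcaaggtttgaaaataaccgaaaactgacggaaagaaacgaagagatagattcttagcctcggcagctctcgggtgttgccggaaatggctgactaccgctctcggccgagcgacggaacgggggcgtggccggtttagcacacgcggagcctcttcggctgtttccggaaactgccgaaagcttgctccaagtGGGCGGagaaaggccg
Mark3: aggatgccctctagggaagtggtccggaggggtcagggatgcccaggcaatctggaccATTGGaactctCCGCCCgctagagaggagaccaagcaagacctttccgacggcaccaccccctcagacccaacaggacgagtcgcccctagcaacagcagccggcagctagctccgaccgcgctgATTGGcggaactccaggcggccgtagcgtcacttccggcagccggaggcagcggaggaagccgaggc
The Gsk3a window held 1 GC box and 1 CCAAT box, and the Gsk3b window held 3 CCAAT boxes and 1 TATA box. The letters of this TATA box were on the opposite strand, near the middle of the window, and its use was not tested. The Mark2 window held 1 GC box, and the Mark3 window held 1 GC box and 2 CCAAT boxes. Among 32851 mouse promoter windows of the same length, 32.7% held a GC box, 33.9% a CCAAT box and 12.4% a TATA box, so each of the first pair is common. The G and C share was 52.0% for Gsk3a, 62.0% for Gsk3b, 55.6% for Mark2 and 65.6% for Mark3, against a median of 52.4%. No motif was shared by all 4 windows.

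Per length, the 10 genes fell into a high and a low set. On the authors' RPKM scale (counts divided by gene length and library total), Gsk3a averaged 77.2 ± 17.9, Cdk5 72.9 ± 11.8 and Mapt 50.8 ± 8.56 over the 16 libraries (SD). Cdk5r1 followed at 36.5 ± 7.38 RPKM and Fyn at 26.3 ± 4.04 RPKM. The lower set was Mark2 at 15.3 ± 3.82, Mark3 at 14.7 ± 2.19, Mark4 at 10.6 ± 3.62, Mark1 at 9.63 ± 2.46 and Gsk3b at 9.57 ± 3.01 RPKM. Mapt exceeded Cdk5r1, Cdk5r1 exceeded Fyn and Fyn exceeded Mark2 in 16 of 16 libraries each. Gsk3a and Cdk5 could not be ordered, since Gsk3a was the higher in 9 of 16 libraries, and neither could Mark2 and Mark3 (9 of 16), Mark4 and Mark1 (11 of 16) or Mark1 and Gsk3b (6 of 16). The alpha form of glycogen synthase kinase 3 thus stood above the beta form, by a ratio of RPKM of 7.79 ± 0.548 in 5xFAD-Dp16, 6.94 ± 0.583 in 5xFAD, 8.72 ± 0.921 in Dp16 and 10.4 ± 3.28 in wild-type cortex (SD, n = 4 each). RPKM divides by the whole gene model, and the models differ, from 2059 bases for Cdk5 and 2260 for Gsk3a to 6384 for Mapt and 8342 for Gsk3b.

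**Figure D1:**
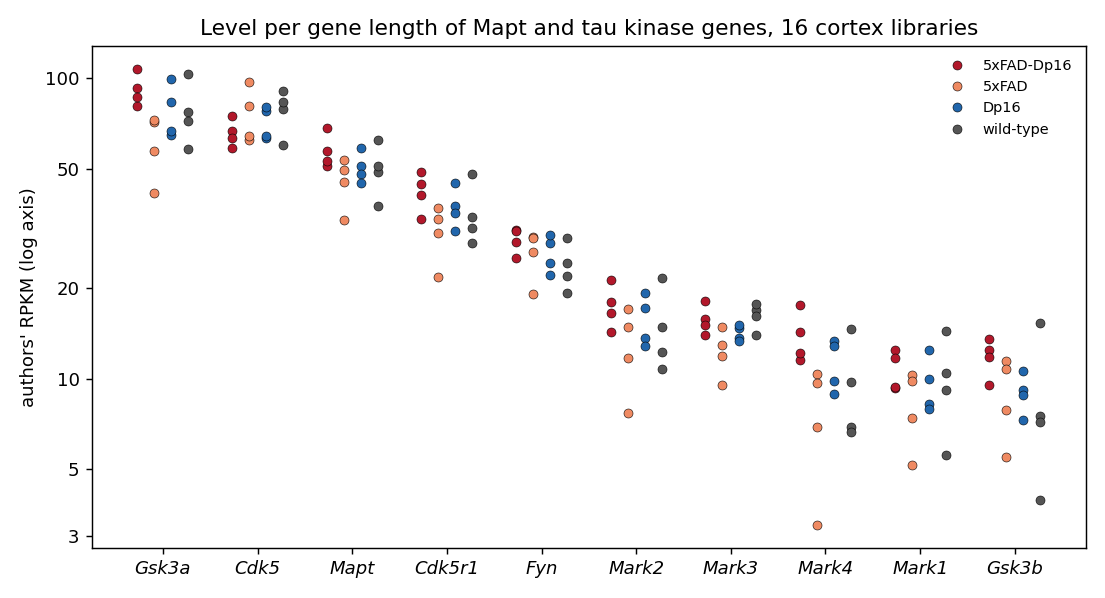
Level per gene length of each gene in each library (authors' RPKM, log axis), 1 point per animal, coloured by genotype, with genes ordered by their mean. Gsk3a, Cdk5 and Mapt averaged 77.2, 72.9 and 50.8 RPKM. Gsk3b had the lowest mean, at 9.57 RPKM, but could not be ordered with Mark1, which was the higher in 6 of 16 libraries.

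Mapt did not differ between genotypes beyond the spread between animals in any comparison. It stood at 418, 317, 355 and 329 CPM in 5xFAD-Dp16 cortex, against 337, 317, 239.7 and 295 CPM in 5xFAD cortex. It stood at 329, 306, 373 and 289 CPM in Dp16 cortex, against 316, 247, 323 and 388 CPM in wild-type cortex. The 4 ranges overlapped, with the lowest value in a 5xFAD animal and the highest in a 5xFAD-Dp16 animal. The group means were 355 ± 45.3 CPM in 5xFAD-Dp16, 297 ± 41.9 in 5xFAD, 324 ± 36.4 in Dp16 and 318 ± 57.7 in wild-type cortex (SD, n = 4 each). With edgeR's quasi-likelihood test, the log2 fold change of 5xFAD-Dp16 against 5xFAD was 0.28 (95% interval -0.06 to 0.63, adjusted p = 0.293). That of 5xFAD against wild-type was -0.10 (interval -0.42 to 0.21, adjusted p = 0.824), and that of Dp16 against wild-type was 0.03 (interval -0.29 to 0.34, adjusted p = 1.00). The intervals of these last comparisons reached no further than -0.42 and 0.34. In bulk tissue, fewer neurons and less Mapt RNA per neuron cannot be told apart. Gene counts sum over the transcripts of Mapt, so the share with exon 10, which sets the number of microtubule-binding repeats, was not measured.

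Of the glycogen synthase kinase genes, Gsk3a separated the 2 groups that carry the 5xFAD transgenes, without passing the test, and Gsk3b did not. Between these groups 11.5% of all tested genes did not overlap, in either direction, and 5.59% of all tested genes were higher in 5xFAD-Dp16 without overlap. Gsk3a had 233, 178, 203 and 189 CPM in 5xFAD-Dp16 cortex, against 160.0, 164, 105 and 133 CPM in 5xFAD cortex, so that each 5xFAD-Dp16 library was above each 5xFAD library. It had 189.7, 146, 224 and 153 CPM in Dp16 cortex, against 177, 136, 161 and 228 CPM in wild-type cortex, with overlapping ranges. Its log2 fold change of 5xFAD-Dp16 against 5xFAD was 0.60 (SE 0.20, edgeR adjusted p = 0.155), which did not pass the threshold of 0.05. Gsk3b had 109, 77.3, 101 and 95.6 CPM in 5xFAD-Dp16 cortex, against 94.8, 90.3, 51.2 and 67.4 CPM in 5xFAD cortex. It had 77.2, 73.4, 88.7 and 61.6 CPM in Dp16 cortex, against 63.8, 34.1, 59.6 and 125 CPM in wild-type cortex. The wild-type range of Gsk3b spanned that of every other group, and both its ends were single animals, replicate 2 at 34.1 and replicate 4 at 125 CPM. Its log2 fold change of 5xFAD-Dp16 against 5xFAD was 0.49 (SE 0.31, adjusted p = 0.330), and that of Dp16 against wild-type was 0.11 (SE 0.28, adjusted p = 1.00).

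Cdk5 and its activator gene had log2 fold changes of opposite sign in 5xFAD-Dp16 against 5xFAD, neither past the threshold. Cdk5 had 115, 134, 126 and 150.0 CPM in 5xFAD-Dp16 cortex, against 127, 132, 222 and 171 CPM in 5xFAD cortex. It had 131, 159, 132 and 166 CPM in Dp16 cortex, against 165, 193, 170.2 and 120.2 CPM in wild-type cortex. The highest Cdk5 level, 222 CPM, was in 5xFAD replicate 3, the library that held the lowest value of Mapt, Gsk3a, Cdk5r1, Mark1, Mark2, Mark3 and Mark4. Cdk5r1 had 195, 138, 179.6 and 165 CPM in 5xFAD-Dp16 cortex, against 140.4, 155, 101 and 129.9 CPM in 5xFAD cortex. It had 157, 148, 186 and 130.2 CPM in Dp16 cortex, against 134, 122, 142 and 195 CPM in wild-type cortex. Both genes overlapped between all groups. In 5xFAD-Dp16 against 5xFAD, the log2 fold change was -0.40 for Cdk5 (SE 0.18, edgeR adjusted p = 0.190) and 0.42 for Cdk5r1 (SE 0.18, adjusted p = 0.186). The ratio of Cdk5r1 to Cdk5 in RPKM was 0.648 ± 0.150 in 5xFAD-Dp16, 0.433 ± 0.164 in 5xFAD, 0.534 ± 0.138 in Dp16 and 0.482 ± 0.217 in wild-type cortex (SD, n = 4 each), with overlapping ranges. Cdk5r1 rose with the length trend of the libraries (Pearson r = 0.90) and Cdk5 fell with it (r = -0.91). The ratio was highest in 5xFAD-Dp16 replicate 1 and wild-type replicate 4, at 0.835 and 0.801, and lowest in 5xFAD replicate 3, at 0.226. The length trends of these libraries were 0.451, 0.435 and -0.462. The part of the trend in the ratio was not tested.

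Among the microtubule affinity regulating kinases, Mark4 had the widest range of the 10 genes, with a highest library 4.63 times the lowest. It had 67.0, 44.8, 55.2 and 46.9 CPM in 5xFAD-Dp16 cortex, against 40.8, 38.4, 14.4 and 28.0 CPM in 5xFAD cortex. It had 53.4, 39.0, 50.8 and 35.7 CPM in Dp16 cortex, against 27.8, 27.3, 38.5 and 56.6 CPM in wild-type cortex. Each 5xFAD-Dp16 library was above each 5xFAD library, as for 5.59% of all tested genes, and the lowest value was again 5xFAD replicate 3. The log2 fold change of 5xFAD-Dp16 against 5xFAD was 1.06 (SE 0.29, edgeR adjusted p = 0.155), the largest of the 10 genes in that comparison and above 96.3% of the values of all tested genes. Mark3, by contrast, was lowest in 5xFAD and highest in wild-type cortex. It had 62.1, 54.8, 48.5 and 52.0 CPM in 5xFAD-Dp16 cortex, against 52.4, 46.4, 37.7 and 43.4 CPM in 5xFAD cortex. It had 49.0, 47.3, 52.6 and 54.0 CPM in Dp16 cortex, against 61.1, 51.3, 57.2 and 61.7 CPM in wild-type cortex. Its log2 fold change of 5xFAD against wild-type was -0.37 (SE 0.12, adjusted p = 0.293), with 3 of 4 5xFAD libraries below every wild-type library.

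Mark2 averaged 86.1 ± 13.8 CPM in 5xFAD-Dp16, 66.4 ± 18.3 in 5xFAD, 80.1 ± 15.4 in Dp16 and 75.3 ± 22.4 in wild-type cortex (SD, n = 4 each). Mark1 averaged 43.9 ± 6.27 CPM in 5xFAD-Dp16, 35.3 ± 8.79 in 5xFAD, 41.0 ± 8.76 in Dp16 and 41.7 ± 14.4 in wild-type cortex. Both genes overlapped between all groups. Fyn had the smallest ratio of the 10 genes between its highest and lowest library, at 1.51 in CPM. It averaged 108 ± 10.2 CPM in 5xFAD-Dp16, 103 ± 14.5 in 5xFAD, 101 ± 13.8 in Dp16 and 91.2 ± 14.7 in wild-type cortex. Its log2 fold change was 0.11 in 5xFAD-Dp16 against 5xFAD (95% interval -0.22 to 0.44, edgeR adjusted p = 0.689) and 0.17 in 5xFAD against wild-type (interval -0.13 to 0.47, adjusted p = 0.691).

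**Figure D2:**
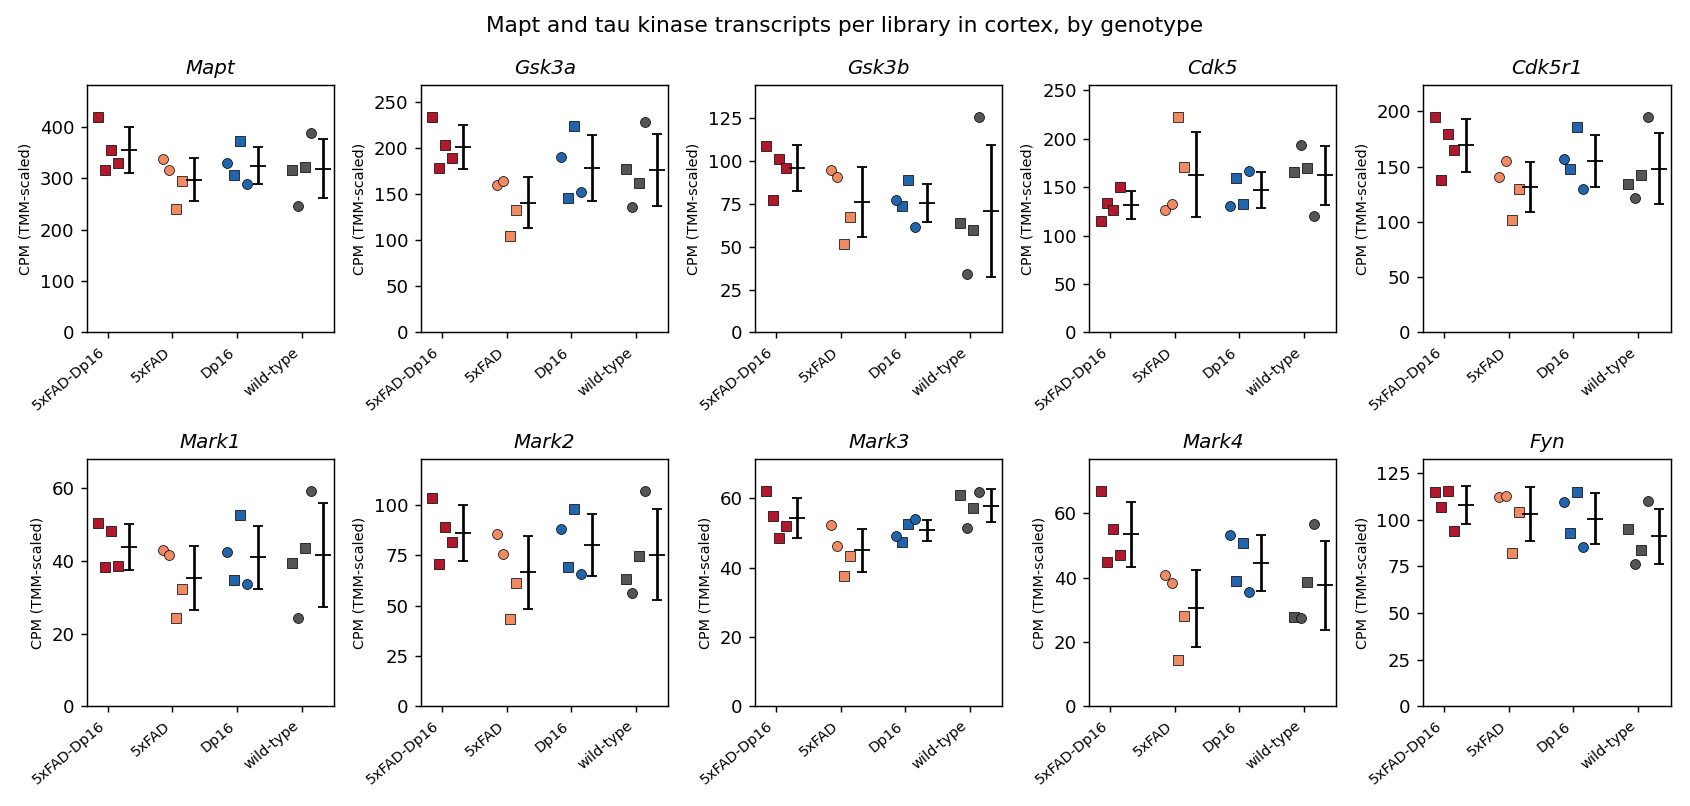
CPM of the 10 genes by genotype, 1 panel per gene, with 1 point per animal (squares males, circles females) and a bar for the mean ± SD. The 5xFAD-Dp16 points of Gsk3a and Mark4 lie above all 5xFAD points, as do those of 5.59% of all tested genes. The wild-type points of Gsk3b run from 34.1 to 125 CPM.

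Across the 8 comparisons of the design, 0 of the 10 genes passed an adjusted p of 0.05 with edgeR's quasi-likelihood test, and DESeq2 called 0 in 7 of them. In 5xFAD-Dp16 against 5xFAD, which asks what the duplication does on the amyloid background, 0% of all tested genes were called. The log2 fold change was positive for 9 of the 10 genes, beside 49.8% of all tested genes, and the median was 0.41 against -0.00 over all tested genes. The 10 genes varied together from library to library, so their signs are not independent. Of the 10, 6 had an unadjusted p under 0.05 (Gsk3a, Cdk5, Cdk5r1, Mark2, Mark3 and Mark4), against 23.8% of all tested genes. The groups did not overlap for 2 of the 10, Gsk3a and Mark4, both higher in 5xFAD-Dp16, against 5.59% of all tested genes that were higher without overlap, 5.87% that were lower and 11.5% in either direction. DESeq2 called these same 2 genes, with adjusted p of 0.0497 for Gsk3a and 0.0266 for Mark4, beside 6.49% of the genes it gave an adjusted p.

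The comparison of 5xFAD-Dp16 with 5xFAD set 4 males against 2 males and 2 females. Among males alone, which left 2 5xFAD animals, replicates 3 and 4, 8 of the 10 genes passed the threshold, beside 22.5% of 17567 genes: Mark4 (log2 fold change 1.34), Gsk3a (0.77), Mark2 (0.73), Gsk3b (0.70), Mark1 (0.65), Cdk5r1 (0.56) and Mark3 (0.44) were higher and Cdk5 (-0.56) was lower. These 2 male 5xFAD libraries had the lowest length trends of their group, -0.462 and -0.239, against 0.102 to 0.451 in the 4 5xFAD-Dp16 libraries. With the length trend also removed, 3 of the 10 passed among males, Mark4 at 1.17, Gsk3a at 0.88 and Cdk5 at -0.39, beside 18.1% of genes. Without 5xFAD replicate 3, the log2 fold changes over both sexes were 0.76 for Mark4 (SE 0.27), 0.45 for Gsk3a (SE 0.21), 0.15 for Mapt (SE 0.17) and -0.20 for Cdk5 (SE 0.18), and the adjusted p of all 4 was at least 0.700. With the length trend removed from all 16 libraries, Mark4 stood at 0.95 and Gsk3a at 0.68, while Mapt stood at -0.00, Gsk3b at 0.12 and Fyn at 0.00, and 0 of the 10 passed. The removal shifts genes by their length alone, and does not take out a gene's own relation to the trend. Gsk3a, at 2260 bases against a median of 3066, is short, yet its level rose with the trend (Pearson r = 0.86). The r of Mark4 was 0.86 as well. The values of these 2 genes with the trend removed therefore cannot show what remains without it. The length trend, the sex make-up and the genotype moved together here, and their parts in these differences were not tested apart beyond these values.

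**Figure D3:**
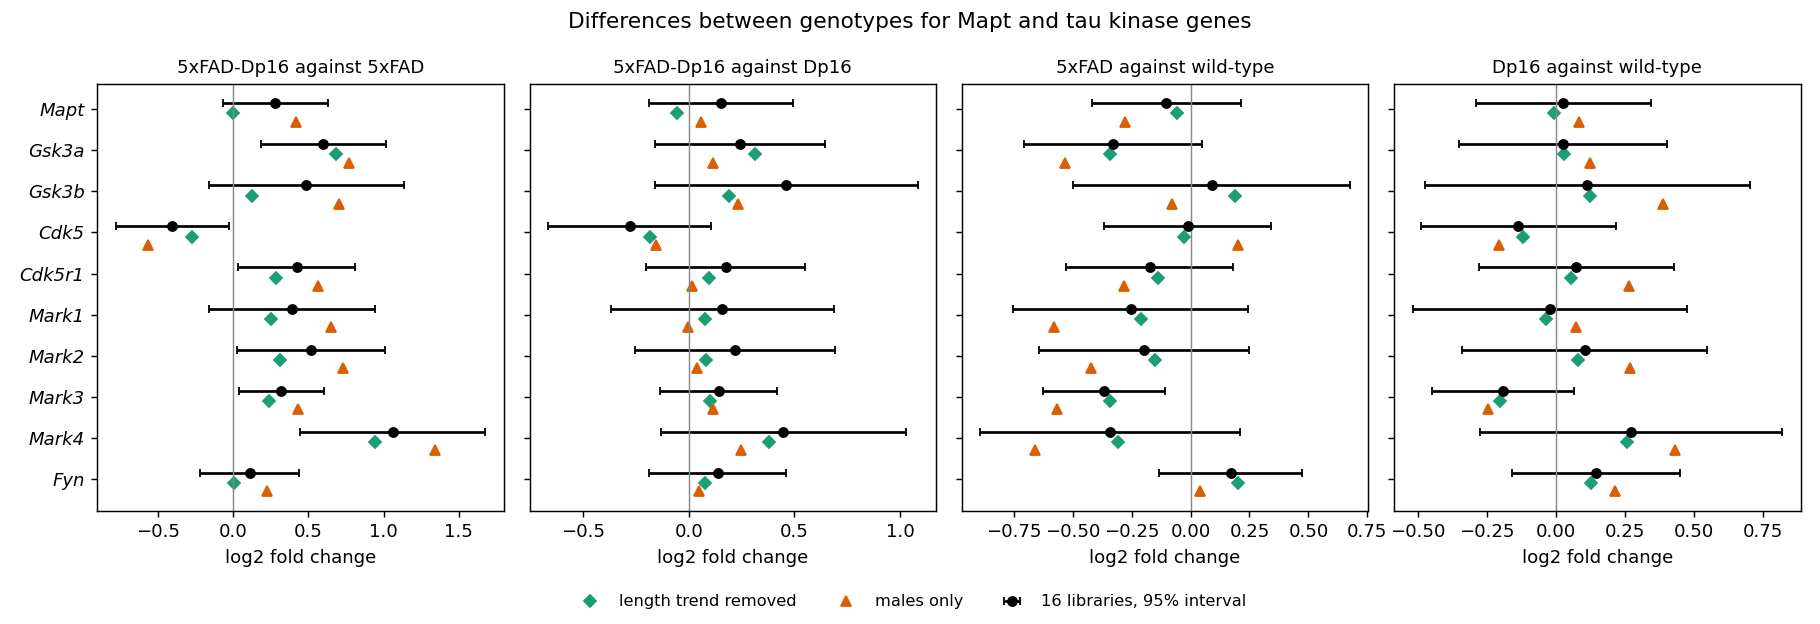
Log2 fold change of each gene in 4 comparisons of genotypes. Black points with bars give the estimate and 95% interval from all 16 libraries, green diamonds the estimate with the length trend removed, and orange triangles that among males only; in 5xFAD-Dp16 against 5xFAD, Mark4 is at 1.06, 0.95 and 1.34, and Mapt is at 0.28 in all libraries and at -0.00 with the trend removed.

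The sums of several cell type marker lists also differed in 5xFAD-Dp16 against 5xFAD, with 0 genes of any list past the threshold. The summed level of 10 excitatory neuron markers ran from 2668 to 4182 CPM in 5xFAD-Dp16 against 1119 to 2495 CPM in 5xFAD libraries, with the lowest value in 5xFAD replicate 3, and 9 of the 10 had a positive log2 fold change (median 0.63). The sum of 10 microglia markers ran from 702 to 794 CPM in 5xFAD-Dp16 against 871 to 1326 CPM in 5xFAD libraries. The sum of 10 pan-neuronal markers, which include Thy1, ran from 10358 to 11613 CPM in 5xFAD-Dp16 and from 10404 to 12563 CPM in 5xFAD libraries. The choroid plexus sum had a median of 17.5 CPM and a highest value of 723 CPM in 5xFAD-Dp16 against a median of 10.8 CPM in 5xFAD libraries (5 of 5 positive, median 2.03), and endothelial markers summed to 111 to 190.2 CPM in 5xFAD-Dp16 against 72.6 to 116 CPM in 5xFAD libraries. Of the endothelial markers 8 of 8 were positive, with a median of 0.62. The 8 hippocampus and thalamus markers, all positive with a median of 0.87, summed to 77.7 to 124 CPM in 5xFAD-Dp16 against 46.2 to 80.0 CPM in 5xFAD libraries. The 8 oligodendrocyte precursor markers, of which 7 were positive with a median of 0.80, summed to 167 to 266 CPM in 5xFAD-Dp16 against 68.8 to 185 CPM in 5xFAD libraries. The medians of the inhibitory neuron, mature oligodendrocyte, astrocyte, striatum and blood lists lay between -0.16 and 0.20.

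Marker sums also differed in 5xFAD against wild-type. The excitatory sums ran from 1119 to 2495 CPM in 5xFAD against 1664 to 3936 CPM in wild-type (1 of 10 positive, median -0.32). Microglial sums ran from 871 to 1326 CPM in 5xFAD against 610 to 722 CPM in wild-type libraries, and 4 of these 10 markers passed the threshold. Endothelial sums were lower without overlap, at 72.6 to 116 CPM in 5xFAD against 133 to 186 CPM in wild-type, with 0 of 8 markers positive and a median of -0.76. Mature oligodendrocyte sums ran from 6226 to 8429 CPM in 5xFAD against 8385 to 9694 CPM in wild-type libraries (2 of 10 positive, median -0.31). The medians of the oligodendrocyte precursor and of the hippocampus and thalamus lists were -0.44 and -0.53, and those of the other lists lay between -0.34 and 0.06. The part of cell composition in the levels of Mapt and the kinase genes was not tested.

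Most of the set had lower values in 5xFAD than in wild-type cortex, and none passed the test. In 5xFAD against wild-type, 8 of the 10 genes had a negative log2 fold change, among them Cdk5 at only -0.01, while 52.1% of all tested genes were positive. The median was -0.19 against 0.02 over all tested genes, and 0 of the 10 were called, beside 0.176% of all tested genes. The largest log2 fold changes were -0.37 for Mark3, -0.34 for Mark4 and -0.33 for Gsk3a. Single libraries moved 2 of these by over 1.5 times: Mark4 stood at -0.12 without 5xFAD replicate 3, at -0.14 without wild-type replicate 4 and at -0.53 without wild-type replicate 2, and Gsk3a at -0.22 without 5xFAD replicate 3 and at -0.20 without wild-type replicate 4. Mark3 was the 1 gene with an unadjusted p under 0.05 (0.00801), beside 10.7% of all tested genes. Of the genes called here, 0.159% of all tested were higher and 0.0176% lower in 5xFAD. No gene of the 10 separated the groups without overlap, beside 5.5% of all tested genes, 2.82% higher and 2.68% lower. In Dp16 against wild-type, 7 of 10 were positive, beside 50.4% of all tested genes. The median was 0.05 and the extremes were -0.19 for Mark3 and 0.27 for Mark4. Of the 10, 0 were called beside 0.0176% of all tested genes, and 0 had an unadjusted p under 0.05 beside 3.88%. None of the 10 separated Dp16 from wild-type without overlap, beside 2.29% of all tested genes, 1.44% higher and 0.852% lower. In 5xFAD-Dp16 against Dp16, 9 of 10 were positive, beside 51.6% of all tested genes. The median was 0.17, and 0 were called, beside 0.0176% of all tested genes. The largest log2 fold changes were Gsk3b at 0.46 and Mark4 at 0.45, and Cdk5 was at -0.28. At an unadjusted p under 0.05 there were 0 of the 10, beside 5.29%, and 0 without overlap, beside 5.43% of all tested genes, 2.82% higher and 2.61% lower. Here and against wild-type, 4 males were set against 2 males and 2 females. The length trend ran from 0.102 to 0.451 in 5xFAD-Dp16, from -0.308 to 0.263 in Dp16 and from -0.360 to 0.435 in wild-type libraries. The 10 genes varied together, so 9 of 10 positive signs are not independent. In 5xFAD-Dp16 against wild-type, the median was 0.26, 0 were called beside 0.047% of all tested genes, and Mark4 at 0.72 (SE 0.28, adjusted p = 0.449) and Cdk5 at -0.42 (SE 0.18, adjusted p = 0.477) had an unadjusted p under 0.05, beside 10.4% of all tested genes. Again 0 of the 10 separated the groups without overlap, beside 3.98% of all tested genes, 2.37% higher and 1.61% lower. These comparisons share groups, so their values are not independent of each other.

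Over both backgrounds together, the duplication carriers exceeded the non-carriers most for Mark4, with a log2 fold change of 0.67 (SE 0.20, edgeR adjusted p = 0.309). Gsk3a was at 0.31 (SE 0.13) and Cdk5 at -0.27 (SE 0.12), both with adjusted p above 0.32, and 0 of the 10 were called, beside 0.094% of all tested genes. These 3 genes had an unadjusted p under 0.05, beside 15% of all tested genes, and 0 of the 10 separated carriers from non-carriers, beside 0.135% of all tested genes, 0.118% higher and 0.0176% lower. For all 5xFAD carriers against non-carriers, the 10 values ran from -0.15 for Cdk5 to 0.28 for Gsk3b, with a median of 0.01. Of the 10, 0 were called, beside 0.188% of all tested genes, 0.153% higher and 0.0353% lower. None of the 10 had an unadjusted p under 0.05, beside 7.53% of all tested genes, and none separated these groups, beside 0.217% of all tested genes, 0.0999% higher and 0.118% lower. These 10 values average the 2 backgrounds, on which most of the genes had opposite signs. Mark4 stood at -0.34 in 5xFAD against wild-type and at 0.45 in 5xFAD-Dp16 against Dp16, and Gsk3a at -0.33 and 0.24. Only Gsk3b, Cdk5 and Fyn kept the same sign. The interaction, that is, the effect of the duplication on the 5xFAD background minus its effect without it, was 0.51 for Mark3 (SE 0.18), 0.57 for Gsk3a (SE 0.26), 0.79 for Mark4 (SE 0.38) and 0.25 for Mapt (SE 0.22). It passed for 0 of the 10 genes, with adjusted p from 0.522 to 0.952, beside 0% of all tested genes, and 2, Gsk3a and Mark3, had an unadjusted p under 0.05, beside 9.35% of all tested genes. The different sizes of the duplication effect on the 2 backgrounds were therefore not told apart by this test.

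The 10 genes varied together from library to library. Of the 45 pairs, 36 had a positive Pearson correlation of log2 CPM over the 16 libraries. The 9 negative pairs were those with Cdk5, from -0.51 with Mark3 to -0.92 with Mark2. Among the 28 pairs with neither Cdk5 nor Mark3 the correlation ran from 0.69 to 0.96, and the highest was that of Mapt with Mark1. Mark3 followed the others least, with 0.19 for Fyn and 0.34 for Gsk3b. The points share libraries, depth and the length trend, so these correlations are descriptions.

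Most of this shared variation tracked the length trend of the libraries, which is computed from the same 16 libraries and over genes that include these 10. The Pearson r between log2 CPM and the length trend was 0.90 for Mapt, 0.90 for Gsk3b, 0.90 for Cdk5r1, 0.92 for Mark2, 0.86 for Gsk3a, 0.86 for Mark1, 0.86 for Mark4, 0.80 for Fyn, -0.91 for Cdk5 and 0.47 for Mark3. The Spearman rho ran from 0.84 for Fyn to 0.96 for Mapt over the 8 genes with a high positive r, and was -0.92 for Cdk5 and 0.43 for Mark3. Of the 10 relations tested with 100000 permutations, 9 had an adjusted permutation p of 0.000378 or less for r. That of Mark3 was 0.0673, and 1e-05 unadjusted is the smallest the permutations can give. Libraries were shuffled across genotypes, and many other tested genes followed the trend, so these p-values do not set the 10 genes apart. Without the 2 libraries farthest from the median trend, 5xFAD replicate 3 and 5xFAD-Dp16 replicate 1, r was 0.74 for Fyn, 0.86 for Mapt, -0.89 for Cdk5 and 0.13 for Mark3. Within genotypes, after each group's mean was taken out, r was 0.91 for Mapt, 0.97 for Mark2, -0.92 for Cdk5 and 0.59 for Mark3. Such values were not particular to these genes: 9.88% of all tested genes had an r above 0.8 and 9.98% an r below -0.8. The median absolute r over all tested genes was 0.51. Of the 10 genes, all but Fyn, at 0.7996, and Mark3, at 0.47, lay beyond 0.8 in size.

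Gene length did not order the 10 genes in this. The median length of the tested genes was 3066 bases, and 8 of the 10 were longer. Gsk3a and Cdk5 were the short ones, at 2260 and 2059 bases, yet Gsk3a went up with the trend (r = 0.86) while Cdk5 ran against it (r = -0.91). Mark3, at 3555 bases, followed it weakly and Fyn, at 3838 bases, at 0.80. A change of 0.1 in the trend went with 0.06 log2 units of Mapt, 0.09 of Gsk3a, 0.14 of Gsk3b, 0.16 of Mark4 and -0.08 of Cdk5.

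**Figure D4:**
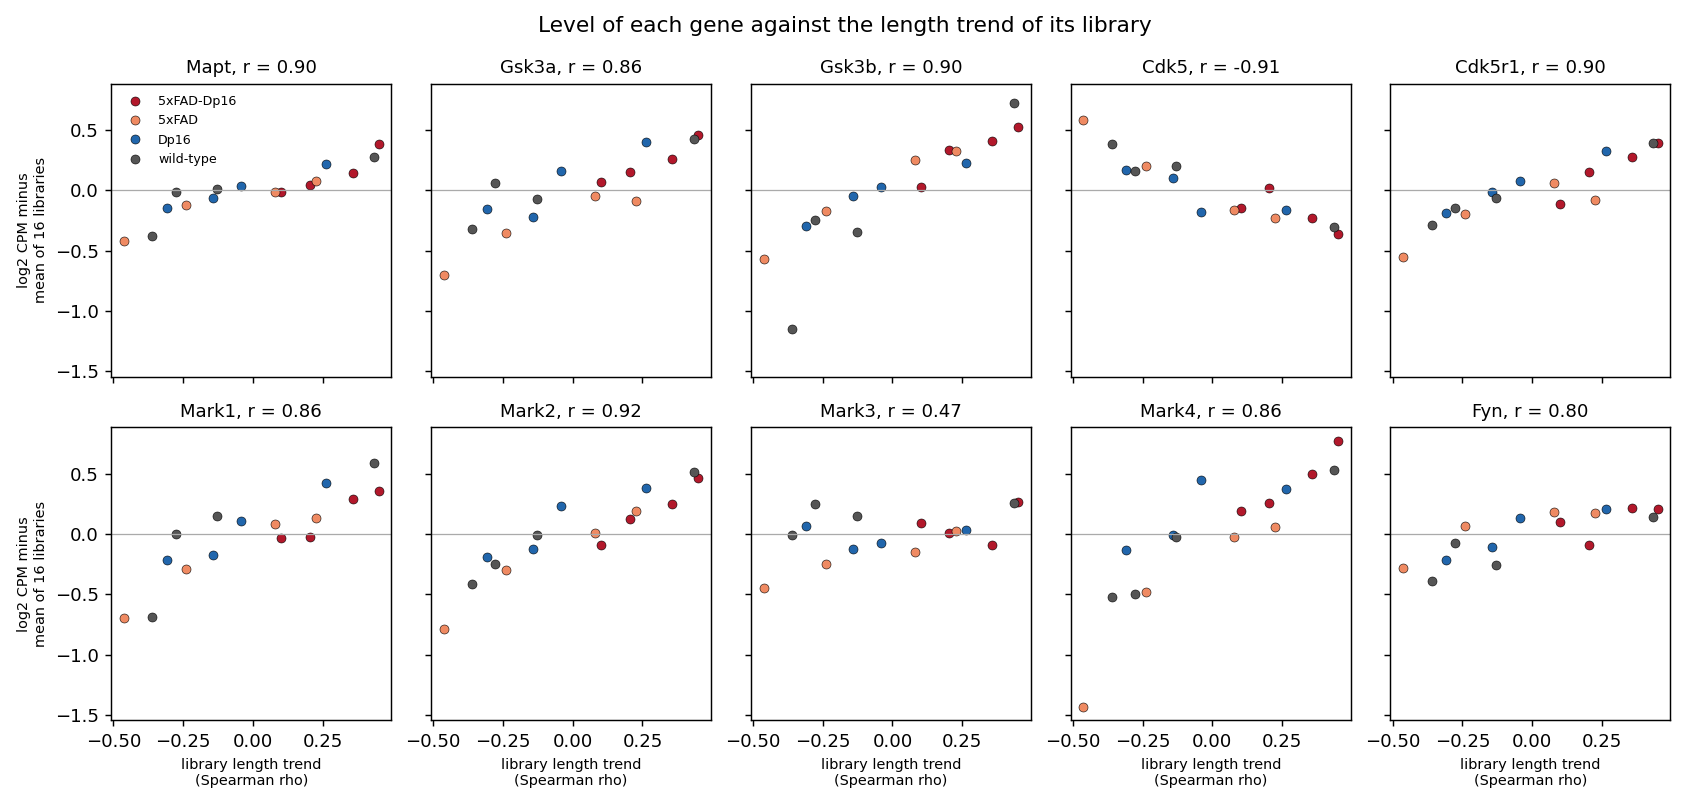
Log2 CPM of each gene minus its mean over the 16 libraries, against the length trend of the library (Spearman rho), 1 point per library coloured by genotype. Mapt and most kinase genes rise with the trend (r = 0.90 for Mapt), Cdk5 falls (r = -0.91), and Mark3 follows it weakly (r = 0.47).

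Within genotypes, the SD of log2 CPM was 0.15 for Mark3, 0.20 for Fyn and 0.21 for Mapt, against a median of 0.36 over all tested genes. In mean log2 CPM these genes lay above 78.1%, 88.4% and 97.2% of the tested genes. That median therefore includes many genes at lower levels, and genes of like level were not compared. The SD was highest for Mark4 and Gsk3b, at 0.46 each. Genes whose levels followed Mapt closely over the 16 libraries, among 13256 eligible genes, included Hnrnpul1, Ptpn11, Rab6b and Ttbk1 (Pearson r = 0.975 each). Ttbk1, tau tubulin kinase, is itself a tau kinase, and Rab6b is a small GTPase of vesicle transport. Mapt itself followed the length trend of the same libraries (r = 0.90), and Ttbk1 is a long gene of 13858 bases. The likenesses in this paragraph are therefore descriptions, and shared regulation was not tested. The closest gene to Gsk3a was Gabbr1 (r = 0.981), to Gsk3b Rbfox2 (0.976), to Cdk5r1 Prkce (0.980), to Mark1 Ago2 (0.978), to Mark2 Dlgap3 (0.990), to Mark4 Cds2 (0.976) and to Fyn Cyfip1 (0.950). The closest gene to Cdk5 was Arpc3, a short gene of 1170 bases for an actin-branching subunit (r = 0.974), and the closest to Mark3 was the kinesin light chain gene Klc2 (r = 0.943).

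The wider tau pathway was read on 7 lists, and each of their genes was measured. Among 41 other tau kinases, 1 rose in 5xFAD-Dp16 against wild-type and in all duplication carriers, Dyrk1a, which phosphorylates tau and primes it for glycogen synthase kinase 3. Dyrk1a lies inside the duplicated segment, at chr16:94570010-94695517. It had 124, 107, 119 and 114 CPM in 5xFAD-Dp16 cortex, against 69.7, 65.9, 64.1 and 76.9 CPM in 5xFAD cortex. It had 97.3, 103, 103 and 95.2 CPM in Dp16 cortex, against 66.3, 56.8, 62.7 and 74.4 CPM in wild-type cortex. All 8 carriers were above all 8 non-carriers, in contrast to each of the 10 genes above. The log2 fold change was 0.81 in 5xFAD-Dp16 against wild-type (SE 0.12, edgeR adjusted p = 0.0132) and 0.67 over all duplication carriers (SE 0.08, adjusted p = 0.00107). In 5xFAD-Dp16 against 5xFAD it was 0.72 (adjusted p = 0.0517) and in Dp16 against wild-type 0.61 (adjusted p = 0.107).

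Of 10 phosphatase inhibitors, Rcan1, an inhibitor of calcineurin that also lies in the duplicated region, rose over all duplication carriers (log2 fold change 0.51, SE 0.08, edgeR adjusted p = 0.00987). It averaged 89.6 ± 4.50 CPM in 5xFAD-Dp16, 62.5 ± 6.99 in 5xFAD, 95.5 ± 5.33 in Dp16 and 67.9 ± 3.70 in wild-type cortex (SD, n = 4 each). Of the other lists, 0 of 25 tau phosphatases, 0 of 40 regulators of these kinases, 0 of 40 microtubule-associated proteins and tubulins, 0 of 33 genes of tau turnover and 0 of 25 splicing factors of tau exon 10 passed in any of the 8 comparisons. In 5xFAD-Dp16 against 5xFAD, the median log2 fold change was 0.32 for the other tau kinases, with 29 of 41 positive, and 0.24 for the regulators of the member kinases, with 33 of 40 positive. It was 0.27 for the microtubule-associated proteins and tubulins, with 30 of 40 positive, against -0.00 over all tested genes. It was -0.03 for the tau phosphatases, with 11 of 25 positive, and -0.03 for the splicing factors, with 12 of 25 positive.

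Single genes of these lists with the smallest adjusted p in that comparison are given by value only. Prkaca, the catalytic subunit of protein kinase A, was at 0.54 (SE 0.14) and Prkaa2, a catalytic subunit of the energy sensor AMPK, at 0.55 (SE 0.17). Frat2, which binds glycogen synthase kinase 3, was at 1.39 (SE 0.40), and Tubb4a, a beta tubulin, at 0.92 (SE 0.26). Ppp2r1a, the scaffold subunit of the main tau phosphatase PP2A, was at 0.37 (SE 0.12), and Ppp1ca, a catalytic subunit of protein phosphatase 1, at -0.63 (SE 0.21). Srsf7, a splicing factor that acts on tau exon 10, was at -0.76 (SE 0.23) and the splicing kinase gene Clk1 at -0.73 (SE 0.22). All 8 had an edgeR adjusted p of 0.155. In 5xFAD against wild-type, Tubb4a was at -0.73 (SE 0.24, adjusted p = 0.285), Frat2 at -1.04 (SE 0.36, adjusted p = 0.322) and Clk1 at 0.55 (SE 0.21, adjusted p = 0.371), which compares the same 5xFAD libraries with another group.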

How the data were processed

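Per the labels' protocols, cortex RNA was extracted with TRIzol, polyadenylated RNA was made into strand-specific libraries (Tecan/Nugen Universal Plus mRNA) and sequenced from both ends on a NovaSeq instrument. Per the submitters' processing notes, bcl2fastq, FastQC 0.11.5, HISAT2 2.1.0, SAMtools 1.5 and HTSeq 0.6.1 were used with GRCm38; their roles and the strand setting are not given in the sources used here. The authors deposited raw counts per gene, without normalization, and RPKM values, that is, counts scaled by gene length and library total; the 2 tables fitted each other within 0.1% for 100% of values and gave the gene lengths. No RNA quality value per animal was used here.

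Counts were analysed with edgeR 4.0.16 in R 4.3.3: filterByExpr (17019 of 55385 genes), TMM scaling, a mean per genotype with an additive sex term over all 16 libraries, robust quasi-likelihood two-sided tests, p-values adjusted by Benjamini-Hochberg over the 17019 genes, and 0.05 as the threshold. CPM values are scaled by TMM, except the marker sums, which use the raw library total. Log2 CPM used a prior count of 2. Precision rests on 4 animals per group, since every count of the set was at least 219. The scripts were tested on simulated data. The alternatives were RLE size factors, DESeq2 1.42.0, no filter, removal of the length trend by a lowess fit with a span of 0.5, males only, a replicate block, leaving out each library, and 2 alternatives chosen after seeing the data. P-values measure the spread between these animals. The members and lists were chosen with earlier results of these data known. Named genes are the 10 members, list genes past the threshold or else the 3 with the smallest adjusted p (of which the text gives some), Dyrk1a, and the most similar genes by Pearson r, of which 1 is not reported here.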

Additional observations from a re-analysis of the deposited data

How the results depend on the processing

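No member changed sign and passed the threshold, and the number of members called stayed at 0 with RLE size factors, with the length trend removed, with the replicate block, without any single library and without wild-type replicate 2 and 5xFAD replicate 3 together. In 5xFAD-Dp16 against 5xFAD the number of members called was 2 with DESeq2, beside 6.49% of the genes it gave an adjusted p. In that comparison the number called was 3 with no filter on low counts (beside 7.6% of the genes tested), 8 in males only (22.5%) and 3 in males with the length trend removed (18.1%). Over all duplication carriers it was 1 with no filter (beside 3.76% of all genes), 6 in males (14.2%) and 2 in males with the trend removed (7.95%), and in 5xFAD-Dp16 against wild-type it was 1 with no filter (1%). The cause was not tested.

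Counts over all tested genes moved by more than 1.5 times under several settings. Dp16 against wild-type gave 3 in the reported fit, 35 with DESeq2 and 43 with no filter. The same 3 settings gave 30, 234 and 235 in 5xFAD against wild-type. They gave 0, 740 and 2215 in 5xFAD-Dp16 against 5xFAD, and 3, 25 and 45 in 5xFAD-Dp16 against Dp16. For 5xFAD-Dp16 against wild-type they gave 8, 106 and 292, for 5xFAD carriers 32, 154 and 105, for duplication carriers 16, 131 and 1097 and for the interaction 0, 21 and 346. With the length trend removed, Dp16 against wild-type gave 16, 5xFAD-Dp16 against 5xFAD 4, 5xFAD-Dp16 against wild-type 13 and the duplication carriers 34. In males only, these were 0, 3956, 2 and 2488, beside 5 in 5xFAD against wild-type and 10 over 5xFAD carriers. In males with the trend removed, 5xFAD-Dp16 against 5xFAD gave 3175, 5xFAD against wild-type 14, Dp16 against wild-type 0, the 5xFAD carriers 19 and the duplication carriers 1397. Without wild-type replicate 2 and 5xFAD replicate 3, Dp16 against wild-type gave 1, 5xFAD against wild-type 18 and 5xFAD-Dp16 against Dp16 5.

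No label says whether same-numbered animals shared a litter, batch or day, and the reported fit did not pair them. The mean correlation of the deviations of same-numbered libraries ran from -0.06 to 0.05 over the 4 numbers. Only 1 of 16 libraries correlated best with its own number. With the replicate block, Dp16 against wild-type gave 0 genes, 5xFAD-Dp16 against wild-type 3, the 5xFAD carriers 17 and the duplication carriers 9.

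Leaving out each library in turn, the counts ran from 0 to 2 in Dp16 against wild-type, 16 to 26 in 5xFAD against wild-type, 0 to 3 in 5xFAD-Dp16 against 5xFAD, 2 to 4 against Dp16, 3 to 21 against wild-type, 13 to 49 over 5xFAD carriers, 10 to 43 over duplication carriers and 0 to 1 in the interaction. The highest values for 5xFAD-Dp16 against wild-type and for both carrier comparisons came without wild-type replicate 4. Log2 fold changes that crossed 0, all uncalled, ranged in 5xFAD against wild-type for Cdk5 -0.17 to 0.14, Gsk3b -0.18 to 0.53 and Mapt -0.23 to 0.0081, in 5xFAD-Dp16 against 5xFAD for Fyn -0.014 to 0.17, in 5xFAD-Dp16 against wild-type for Mark1 -0.0023 to 0.28 and Mark3 -0.11 to 0.015, over all 5xFAD carriers for Cdk5r1 -0.047 to 0.080, Gsk3a -0.094 to 0.068, Mapt -0.022 to 0.079, Mark1 -0.13 to 0.069, Mark2 -0.064 to 0.12 and Mark4 -0.021 to 0.15, in Dp16 against wild-type for Cdk5 -0.26 to 0.035, Cdk5r1 -0.057 to 0.22, Gsk3a -0.16 to 0.15, Gsk3b -0.12 to 0.52, Mapt -0.090 to 0.14, Mark1 -0.23 to 0.19 and Mark2 -0.076 to 0.28 and in the interaction for Fyn -0.16 to 0.10 and Gsk3b -0.21 to 0.71.

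Other uncalled log2 fold changes of members that crossed 0 were as follows. With RLE size factors and with DESeq2, Cdk5r1 stood at -0.0048 over all 5xFAD carriers. With the length trend removed, the values were in Dp16 against wild-type Mapt -0.0066, in 5xFAD-Dp16 against 5xFAD Mapt -0.00071, in 5xFAD-Dp16 against Dp16 Mapt -0.054, in 5xFAD-Dp16 against wild-type Mapt -0.060, over all 5xFAD carriers Mapt -0.057, Cdk5r1 -0.021 and Mark2 -0.034 and over all duplication carriers Mapt -0.0037. In males only, they were in Dp16 against wild-type Mark1 0.073, in 5xFAD against wild-type Gsk3b -0.079 and Cdk5 0.20, in 5xFAD-Dp16 against Dp16 Mark1 -0.0017, over all 5xFAD carriers Mapt -0.11, Cdk5 0.024, Cdk5r1 -0.13, Mark2 -0.19 and Mark4 -0.21 and in the interaction Fyn 0.0097. Without wild-type replicate 2 and 5xFAD replicate 3, they were in Dp16 against wild-type Mapt -0.085, Gsk3a -0.098, Gsk3b -0.13, Cdk5 0.012, Cdk5r1 -0.023 and Mark2 -0.039, in 5xFAD against wild-type Gsk3b -0.067, in 5xFAD-Dp16 against wild-type Mark1 -0.045 and over all 5xFAD carriers Cdk5r1 -0.0083 and Mark2 -0.0032. In males with the trend removed, they were in Dp16 against wild-type Mapt -0.085, in 5xFAD against wild-type Cdk5 0.14, in 5xFAD-Dp16 against Dp16 Mapt -0.029, Cdk5r1 -0.011, Mark1 -0.026 and Mark2 -0.011, in 5xFAD-Dp16 against wild-type Mapt -0.11 and Mark1 -0.036, over all 5xFAD carriers Mapt -0.084, Cdk5 0.018, Cdk5r1 -0.096, Mark2 -0.16 and Mark4 -0.17 and over all duplication carriers Mapt -0.029.

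Depth does not limit the members, whose lowest count was 219. The comparisons are limited by 4 animals a group, of which the 5xFAD-Dp16 animals are all male.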
